A study of Homo sapiens with 18 samples.

Results

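The 9 genes described here encode molecules of the MHC class I pathway. They are the heavy chains HLA-B, HLA-C, HLA-E and HLA-F, the light chain B2M, the peptide transporter subunit TAP1, the loading factor TAPBP, and the immunoproteasome subunits PSMB8 and PSMB9. They were chosen by name, by a rule that holds no measured value, and all 9 were found among the 35933 genes with values. Every member passed the filter on low values (a mean of 10 or more in the libraries compared) in all 9 comparisons made.

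RNA sequencing of 18 libraries was used to compare cell lines labelled METTL3 CRISPR knockdown with cell lines that carried a negative control CRISPR construct. METTL3 is the catalytic subunit of the complex that writes N6-methyladenosine (m6A) into messenger RNA. The pair was made in each of 3 related human breast epithelial lines, with 3 replicate libraries (a, b and c) per group. MCF10A is spontaneously immortalized and non-tumorigenic. Introduction of mutated HRas into MCF10A gave MCF10AT1, and serial passage of MCF10AT1 as xenografts in mice gave MCF10CA1h. All lines grew in the same medium, which contained horse serum, insulin, hydrocortisone, cholera toxin and EGF. By the study's methods, both arms went through transfection with an all-in-one Cas9 and mCherry construct, sorting of mCherry-positive cells and selection of single-cell clones, with a guide to the first exon of METTL3 in one arm and a control guide in the other. Each group is thus 1 clonal line, the 3 libraries of a group do not cover differences between clones, and clone and knockdown cannot be told apart. No label says that replicate libraries came from separate cultures, so p-values measure only the spread between these libraries, which may be technical.

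Class I molecules display short peptides from inside the cell to CD8+ T cells and to natural killer cells. The proteasome cuts proteins into peptides, and interferon exchanges its constitutive catalytic subunits for inducible ones such as PSMB8 and PSMB9. The transporter TAP carries the peptides into the endoplasmic reticulum, where tapasin (TAPBP) holds an empty heavy chain with B2M next to the transporter until a peptide is bound. Interferon signals, IRF factors and the coactivator NLRC5 are known to raise many of these genes together.

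The number of members called differed between the 3 lines. In MCF10CA1h 8 of 9 members were higher in the line labelled knockdown, where 7.91% of all genes tested were called higher. In MCF10AT1 5 of 9 were higher, against 7.07% of all genes. In MCF10A 0 of 9 passed by limma without pairing, where 1.16% of genes were called higher and 1.49% lower, and 5 members were at an unadjusted p under 0.05, against 18.4% of genes. HLA-B, HLA-C and HLA-F passed as lower in MCF10A when libraries were paired by replicate letter, against 4.76% of genes. That pairing was taken from these same data. The effect of the labelled knockdown on HLA-B and HLA-C differed between MCF10A and each of the other lines by a test of the difference itself. Between MCF10CA1h and MCF10AT1 that test called 0 of 9 members higher and 2 lower in MCF10CA1h, against 9.67% and 8.51% of genes. The members' median log2 fold change was 1.41 in MCF10AT1 and 0.94 in MCF10CA1h, so the larger count in MCF10CA1h is not a larger change. A joint fit of the 18 libraries left 3 of the 8 calls in MCF10CA1h.

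In GENCODE coordinates on hg38, 8 members lie on chromosome 6 within 3.59 Mb of the MHC. From low to high coordinates these are HLA-F (ENSG00000204642, chr6:29722775-29738528, plus strand), HLA-E (ENSG00000204592, chr6:30489509-30494194, plus strand), HLA-C (ENSG00000204525, chr6:31268749-31272130, minus strand) and HLA-B (ENSG00000234745, chr6:31353872-31367067, minus strand). Toward the class II region follow PSMB8 (ENSG00000204264, chr6:32840717-32844679, minus strand), PSMB9 (ENSG00000240065, chr6:32844136-32859851, plus strand), TAP1 (ENSG00000168394, chr6:32845209-32853816, minus strand) and TAPBP (ENSG00000231925, chr6:33299694-33314284, minus strand). B2M (ENSG00000166710) lies outside the MHC at chr15:44711358-44718851 on the plus strand. The GENCODE model of PSMB9 overlaps TAP1 and PSMB8 on the other strand, and the RefSeq starts of TAP1 and PSMB9 lie 488 bases apart and point away from each other. The strand setting of the counting is not given in the sources used here, and the class I heavy chains are similar in sequence, so how reads were split among overlapping or similar genes is uncertain for these members.

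Since class I genes are known for shared promoter elements, the promoter windows of RefSeq (build GRCh38.p14, 250 bases before to 50 after the start) were searched on both strands for 4 motifs. A window was found for 8 members, with HLA-E the one without an entry. The members had 10 windows, with 2 each for TAP1 and PSMB8, and a further window of each of these held no match. Members are counted here per gene, while shares of all promoters are per window. The interferon-stimulated response element (ISRE), searched as GAAANNGAAA, was found in 5 of the 8 members (HLA-F, B2M, TAP1, TAPBP and PSMB8) and in 3.57% of all 35116 promoters. Looser forms of the ISRE were not searched for, so a member without a match may hold one. The TAP1 matches lie between the starts of TAP1 and PSMB9, outside the PSMB9 window, and are not counted for PSMB9. A kappa B site, GGGNNTTCCC, was found in HLA-B and in 2.17% of promoters. The X2-like site TGACGC was found in HLA-B and HLA-C and in 9.14% of promoters, and the Y box CCAAT in 6 members (HLA-B, HLA-C, HLA-F, B2M, TAP1 and PSMB9) and in 34.6% of promoters. The windows of TAP1 and PSMB9 overlap, and their Y box matches are the same bases, counted for both genes. B2M, TAP1 and TAPBP each hold 2 overlapping ISRE matches. Stretches that hold the ISRE matches of 4 members, the kappa B site and the X2-like sites with nearby Y boxes are given here, and the other matches are not printed. They run 5′ to 3′ on the strand of the gene, with the motif letters of either orientation in capitals.
HLA-B kappa B site, chr6:31357344-31357363 (minus): cagcgttGGGGATTCCCcac
HLA-B X2-like site and Y box, chr6:31357256-31357285 (minus): TGACGCgtccccacttcccactcccATTGG
HLA-C X2-like site and Y boxes, chr6:31272168-31272197 (minus): TGACGCgtccCCAATtcccactcccATTGG
HLA-F ISRE, chr6:29723268-29723295 (plus): ctccccagagTTTCTCTTTCtctcccaa
HLA-F Y boxes, chr6:29723352-29723381 (plus): ATTGGgcgtcgcgtttctagagaagCCAAT
B2M ISRE, chr15:44711367-44711396 (plus): ctctaaGAAAAGGAAACTGAAAacgggaaa
TAP1 ISRE, chr6:32853817-32853846 (minus): gcggccgcTTTCGATTTCGCTTTCccctaa
TAPBP ISRE, chr6:33314079-33314106 (minus): ctttggagGAAAGTGAAAGTGAAAggag
The HLA-B and HLA-C stretches start with the same X2-like letters and end with the same Y box, and the HLA-C stretch has a further Y box between them. The HLA-B X2-like, HLA-F Y box and TAPBP stretches lie wholly within exons of protein-coding GENCODE transcripts on the same strand (30, 30 and 28 bases). The other printed stretches lie outside such exons. A match describes letters and does not show binding.

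**Figure D1:**
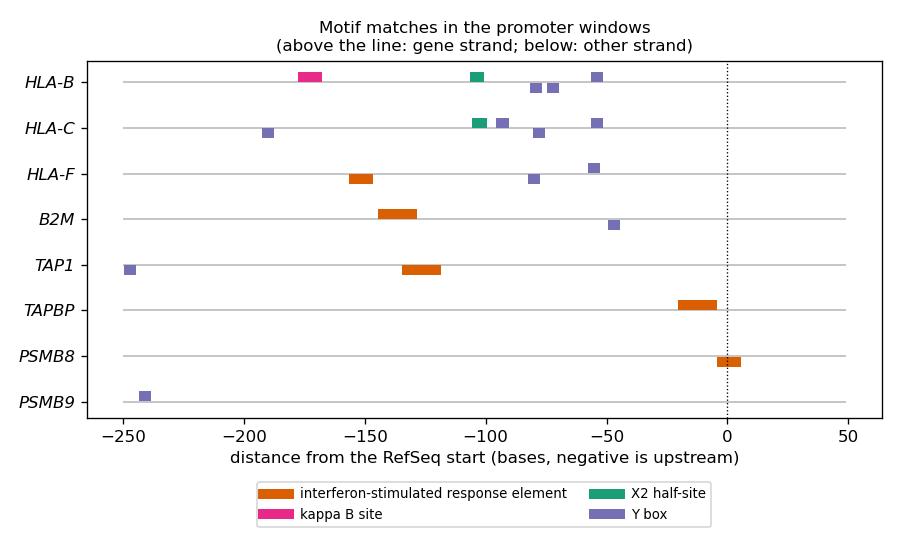
Motif matches in the RefSeq promoter windows of 8 members, by distance from the start in bases (x axis), with matches on the gene's strand above the line and on the other strand below it. ISRE matches appear in HLA-F, B2M, TAP1, TAPBP and PSMB8, and HLA-B and HLA-C share an X2-like match and Y boxes at nearly the same distances.

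The deposited values are normalized counts, which are neither reads nor values per length, so each gene is compared with itself across groups and not with other genes. Library sums were between 21347352 and 31681834. The targeted gene, METTL3 (ENSG00000165819, chr14:21498133-21511342, minus strand), was at 752, 686 and 459 normalized counts in the MCF10A control libraries and at 939, 981 and 510 in those labelled knockdown, which overlap (exact permutation test, two-sided, p = 0.3). In MCF10AT1 it was at 968, 1016 and 805 against 816, 752 and 902 (exact permutation test, two-sided, p = 0.3). In MCF10CA1h it was at 1022, 1102 and 1280 against 825, 745 and 843, without overlap (exact permutation test, two-sided, p = 0.1, the smallest that 3 against 3 libraries allow; limma adjusted p = 0.0234). That limma call was lost without control c (adjusted p = 0.0906) or labelled knockdown b (0.0854), without the intensity trend (0.0742) and in a joint fit of the 18 libraries (0.501). The labelled knockdown mean was 128%, 88.5% and 70.8% of the control mean in MCF10A, MCF10AT1 and MCF10CA1h. Since an edited gene can still be transcribed, this level is no measure of the protein. The study reported lower METTL3 protein by Western blot in knockdown clones of every line, with moderate depletion in MCF10CA1h. It reported a lesser decrease of METTL3 mRNA by RT-PCR. Its m6A assay gave a significant decrease in MCF10AT1 and MCF10CA1h and a non-significant decrease in MCF10A. Its main text does not name the clone that was sequenced. The lines are called labelled knockdown throughout.

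**Figure D2:**
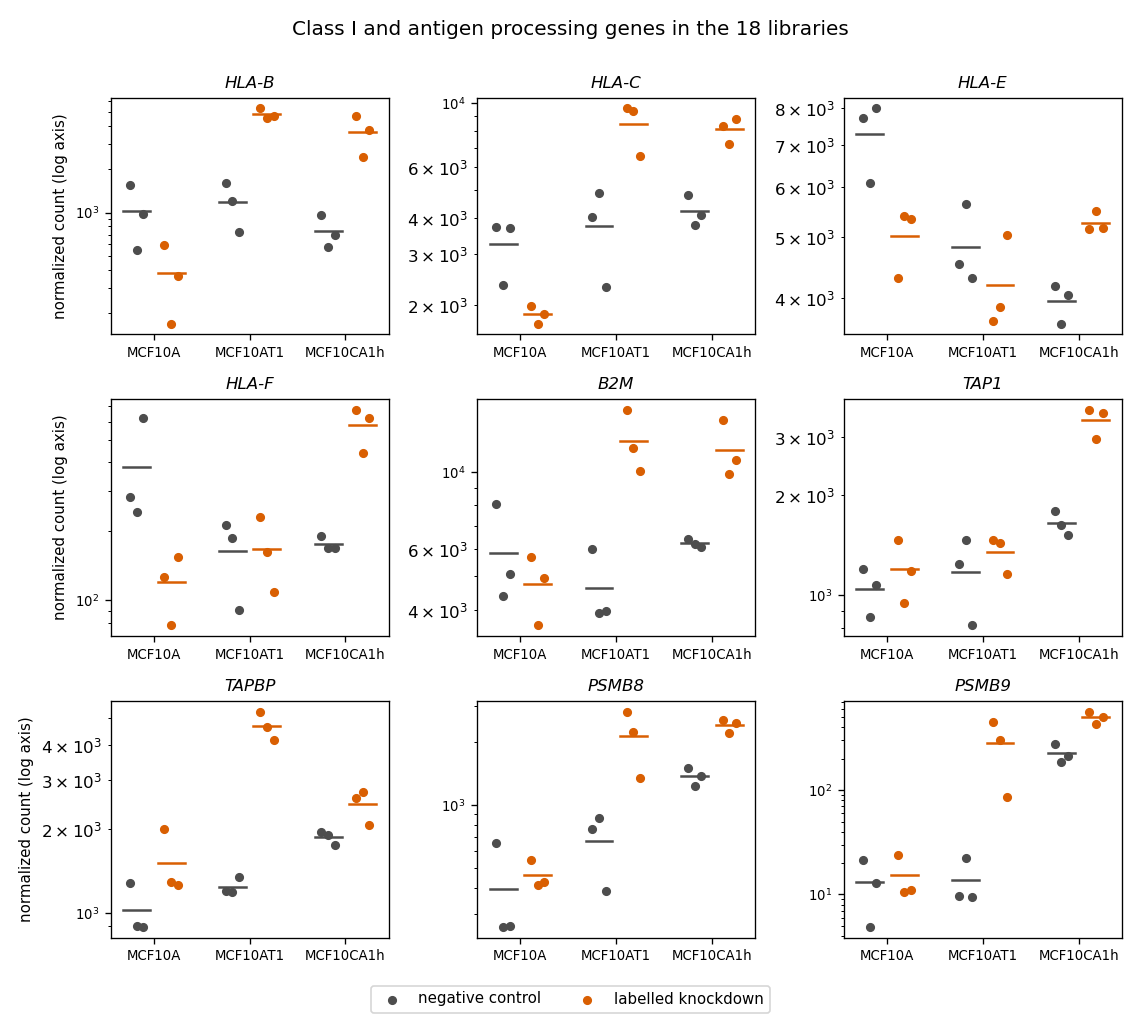
Normalized counts of the 9 members in each of the 18 libraries (log axis, a panel per gene), with points for replicates a, b and c and a bar for the mean of negative control (grey) and labelled knockdown (orange) libraries. All 9 members lie higher without overlap in the labelled knockdown libraries of MCF10CA1h, 6 do so in MCF10AT1, and HLA-C, HLA-E and HLA-F lie lower without overlap in MCF10A. Of all genes, 32.7%, 32.8% and 23.9% did not overlap in MCF10CA1h, MCF10AT1 and MCF10A, in either direction.

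The classical heavy chain HLA-B, which presents peptides to CD8+ T cells, showed opposite directions in MCF10A and the other lines. In MCF10A, HLA-B was at 1545, 548 and 974 normalized counts in control libraries a, b and c and at 598, 168 and 362 in labelled knockdown libraries a, b and c. Each labelled knockdown library was below the control library with the same letter, although the groups overlap. The log2 fold change (labelled knockdown over control, on log2 of the value plus 1, as in all that follow) was -1.50 ± 0.50 (SE, n = 3 per group). It missed the threshold of 0.05 without pairing (limma adjusted p = 0.161) and passed it with the letter as a block (limma adjusted p = 0.00382). In MCF10AT1, HLA-B was at 1621, 1204 and 729 in the controls and at 5333, 4571 and 4743 in the labelled knockdown libraries. The groups lie far apart, with a log2 fold change of 2.11 ± 0.33 (limma adjusted p = 0.00418), or 4.33-fold. In MCF10CA1h, HLA-B was at 956, 575 and 695 against 4717, 2448 and 3782. The lowest labelled knockdown library was above every control, with a log2 fold change of 2.28 ± 0.24 (limma adjusted p = 0.000286), or 4.85-fold. In bulk RNA, fewer cells with a transcript and less of it per cell cannot be told apart.

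HLA-C, the other classical heavy chain among the members and also a ligand of natural killer cell receptors, took the same directions as HLA-B with smaller changes. In MCF10A, HLA-C was at 3718, 2342 and 3679 in the controls and at 1971, 1718 and 1854 in the labelled knockdown libraries. All labelled knockdown libraries were below all controls, and the log2 fold change of -0.78 ± 0.20 passed with the block (limma adjusted p = 0.0221) and not without it (0.0869). In MCF10AT1, HLA-C was at 4008, 4879 and 2304 against 9579, 9359 and 6526. The groups do not overlap, and the log2 fold change of 1.23 ± 0.34 again passed with the block (limma adjusted p = 0.00355) and not without it (0.0513). Without control library b it also passed unpaired (limma adjusted p = 0.0314). In MCF10CA1h, HLA-C was at 4807, 3771 and 4100 against 8301, 7221 and 8799, a clear separation with a log2 fold change of 0.94 ± 0.11 (limma adjusted p = 0.000711), or 1.92-fold.

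HLA-E is a non-classical heavy chain that presents leader peptides of other class I chains to the NKG2 receptors of natural killer cells. It varied least among the members, with a highest group mean 1.8 times the lowest, and its highest mean was in MCF10A controls. In MCF10A, HLA-E was at 7721, 6085 and 7984 in the controls and at 4309, 5396 and 5343 in the labelled knockdown libraries. The groups do not overlap, but the log2 fold change of -0.53 ± 0.17 passed neither without the block (limma adjusted p = 0.143) nor with it (0.0806). In MCF10AT1, HLA-E was at 4528, 5639 and 4301 against 3678, 3881 and 5044, which overlap (log2 fold change -0.20 ± 0.26, limma adjusted p = 0.660). In MCF10CA1h, HLA-E was at 4178, 3650 and 4056 against 5142, 5487 and 5167. The rise of 0.41 ± 0.09 on the log2 scale passed (limma adjusted p = 0.0143) but was lost without labelled knockdown library b (0.0565) and without the intensity trend of the test (0.0728).

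HLA-F, a non-classical heavy chain found on activated cells, changed in MCF10CA1h and not detectably in MCF10AT1. In MCF10A, HLA-F was at 282, 242 and 621 in the controls and at 127, 78.0 and 154 in the labelled knockdown libraries, with no overlap. The log2 fold change of -1.59 ± 0.40 missed the threshold (limma adjusted p = 0.0844), and passed with the block (0.0103) and without control library a (0.0489). In MCF10AT1, HLA-F was at 213, 186 and 90.8 against 232, 162 and 108, which overlap widely (log2 fold change 0.06 ± 0.47, limma adjusted p = 0.954). The 95% interval of that change ran from -1.01 to 1.13. In MCF10CA1h, HLA-F was at 191, 170 and 170 against 674, 438 and 625. The controls were tightly grouped and the labelled knockdown libraries well above them, with a log2 fold change of 1.69 ± 0.18 (limma adjusted p = 0.000302), or 3.22-fold.

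B2M, the light chain of class I molecules, was higher in the MCF10AT1 and MCF10CA1h lines labelled knockdown. In MCF10A, B2M was at 8055, 4395 and 5072 in the controls and at 5704, 3622 and 4945 in the labelled knockdown libraries. Those groups overlap (log2 fold change -0.27 ± 0.26, limma adjusted p = 0.640). In MCF10AT1, B2M was at 5994, 3928 and 3975 against 15055, 11697 and 10050. The rise of 1.41 ± 0.30 on the log2 scale (limma adjusted p = 0.0160), or 2.66-fold, was lost without labelled knockdown library a (0.0681) or b (0.0814). In MCF10CA1h, B2M was at 6416, 6215 and 6086 against 14050, 9872 and 10780. The controls differed little among themselves, and the rise of 0.87 ± 0.12 (limma adjusted p = 0.00173) corresponds to 1.83-fold.

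TAP1, one of the 2 subunits of the peptide transporter, passed in MCF10CA1h and not in the other lines. In MCF10A, TAP1 was at 1202, 861 and 1072 in the controls and at 1462, 947 and 1183 in the labelled knockdown libraries, and in MCF10AT1 at 1244, 1465 and 813 against 1462, 1434 and 1161. Both pairs of groups overlap, with log2 fold changes of 0.19 ± 0.21 (limma adjusted p = 0.690) and 0.24 ± 0.30 (limma adjusted p = 0.652). In MCF10CA1h, TAP1 was at 1788, 1625 and 1520 against 3607, 2944 and 3526. Every labelled knockdown library was far above the controls, with a log2 fold change of 1.03 ± 0.11 (limma adjusted p = 0.000346), or 2.04-fold. The partner subunit TAP2, no member, passed in no line, with log2 fold changes of 0.26 ± 0.19, 0.85 ± 0.31 and 0.17 ± 0.11 in MCF10A, MCF10AT1 and MCF10CA1h (limma adjusted p = 0.533, 0.121 and 0.361).

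TAPBP (tapasin) bridges the transporter and empty class I molecules, and it passed the threshold in MCF10AT1. In MCF10A, TAPBP was at 1281, 896 and 892 in the controls and at 1997, 1288 and 1262 in the labelled knockdown libraries. Each labelled knockdown library was above the control with its letter, but the groups overlap (log2 fold change 0.55 ± 0.23, limma adjusted p = 0.253, and 0.0519 with the block). In MCF10AT1, TAPBP was at 1196, 1186 and 1347 against 5269, 4624 and 4176. The groups are far apart, with a log2 fold change of 1.91 ± 0.24 (limma adjusted p = 0.00147), or 3.76-fold. In MCF10CA1h, TAPBP was at 1954, 1908 and 1756 against 2592, 2703 and 2072. These groups do not overlap either, but the log2 fold change of 0.38 ± 0.12 missed the threshold (limma adjusted p = 0.0589) and passed without labelled knockdown library c (0.0216).

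PSMB8, the inducible proteasome subunit with chymotrypsin-like activity, was higher in 2 lines. In MCF10A, PSMB8 was at 658, 260 and 264 in the controls and at 542, 415 and 427 in the labelled knockdown libraries. The 2 lower controls lie below all labelled knockdown libraries and control a above them, so the log2 fold change of 0.36 ± 0.36 (limma adjusted p = 0.651) became 0.80 without control a (0.0434). In MCF10AT1, PSMB8 was at 764, 864 and 386 against 2806, 2240 and 1347. The groups do not overlap, and the rise of 1.68 ± 0.41 (limma adjusted p = 0.0299), or 3.21-fold, was lost when control a (0.0798) or c (0.0527) or labelled knockdown a (0.111) or b (0.130) was left out, and without the intensity trend (0.0599). It was kept with the block (limma adjusted p = 0.000515). In MCF10CA1h, PSMB8 was at 1507, 1232 and 1379 against 2552, 2222 and 2468, tight and separate groups with a log2 fold change of 0.82 ± 0.11 (limma adjusted p = 0.00117), or 1.76-fold.

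PSMB9, the inducible subunit that replaces a caspase-like one, had the widest range, with a highest group mean 38.3 times the lowest. In MCF10A, PSMB9 was near the low end of measurement, at 21.4, 4.90 and 12.9 in the controls and 24.1, 10.6 and 11.1 in the labelled knockdown libraries. The groups overlap (log2 fold change 0.31 ± 0.61, limma adjusted p = 0.839). In MCF10AT1, PSMB9 was at 9.63, 22.4 and 9.39 in the controls and at 453, 306 and 86.3 in the labelled knockdown libraries. Library c, the lowest of the latter, was still above every control, and the log2 fold change was 4.07 ± 0.69 (limma adjusted p = 0.00628), or 16.8-fold. In MCF10CA1h, PSMB9 was at 279, 187 and 214 already in the controls and at 568, 435 and 499 in the labelled knockdown libraries. The groups do not overlap, with a log2 fold change of 1.15 ± 0.18 (limma adjusted p = 0.00278), or 2.22-fold.

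**Figure D3:**
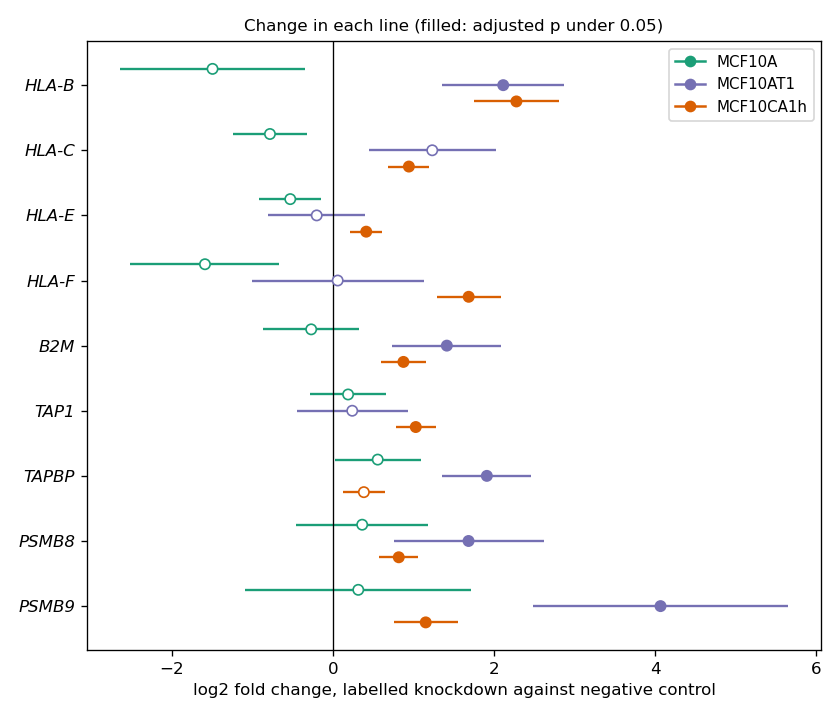
Log2 fold change of each member in each line (x axis, labelled knockdown against negative control, log2 of the normalized count plus 1), with limma's 95% interval as a line and filled points for an adjusted p under 0.05. HLA-B lies at -1.50 for MCF10A, 2.11 for MCF10AT1 and 2.28 for MCF10CA1h, while PSMB9 reaches 4.07 in MCF10AT1.

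Counted over the members, 0 of 9 passed in MCF10A by limma, 5 were at an unadjusted p under 0.05, and the median log2 fold change was -0.27. Over all 15416 genes tested there, 1.16% were called higher and 1.49% lower. At an unadjusted p under 0.05 it was 18.4% in either direction. With the replicate block 3 members were called, all lower, where 2.84% of genes were called higher and 4.76% lower. Without control library a, in which 7 of 9 members had their highest control value, 2 were called, HLA-F lower and PSMB8 higher. In MCF10AT1, 5 of 9 were called higher (HLA-B, B2M, TAPBP, PSMB8 and PSMB9) and 0 lower, where 7.07% of 16050 genes were called higher and 5.96% lower. With the block 6 members were called higher, where 13.0% of genes were called higher and 11.6% lower. At an unadjusted p under 0.05 were 6 members without the block, against 27.6% of genes. The members' median was 1.41, beside 0.02 for all genes, and 3 calls (HLA-B, TAPBP and PSMB9) were left without labelled knockdown library a or b. In MCF10CA1h, 8 of 9 were called higher and 0 lower, where 7.91% of 15127 genes were called higher and 4.85% lower. All 9 were at an unadjusted p under 0.05, against 28.0% of genes. The members' median there was 0.94, beside -0.02 for all genes, and a joint fit of the 18 libraries with 1 spread per gene left 3 calls, HLA-B, HLA-F and TAP1.

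The count of members whose groups do not overlap was 3 in MCF10A, all lower, against 23.9% of all genes in either direction. It was 6 in MCF10AT1 and 9 in MCF10CA1h, all higher, against 32.8% and 32.7% of genes. A single library was often the lowest or highest for most members of its group. MCF10A control b held the lowest control value for 8 members, MCF10AT1 control c for 7, and MCF10CA1h control a the highest for all 9. In the labelled knockdown groups, library a held the highest value for 7, 8 and 6 members in MCF10A, MCF10AT1 and MCF10CA1h.

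Over the 18 libraries, a member's log2 value was correlated with the mean of the other 8 members' standardized log2 values, as a description of libraries that share lines and clones. Pearson's r was 0.92 for HLA-C, 0.90 for B2M, 0.85 for HLA-B, 0.84 for PSMB8, 0.83 for PSMB9 and 0.76 for TAP1. It was lower for TAPBP (0.62) and HLA-F (0.55), and for HLA-E it was -0.27. The order of HLA-E levels over these libraries thus ran unlike that of the other members. Outside the pathway lists, the 5 genes with a mean of at least 50 whose log2 values were most like the members' mean were LAP3 (r = 0.932), ZFPL1 (0.926), SHFL (0.919), TAGLN2 (0.915) and PDIA5 (0.912), over the same 18 libraries. LAP3, a leucine aminopeptidase, had group means of 1325 and 1242 in MCF10A, 1181 and 1946 in MCF10AT1 and 1738 and 3123 in MCF10CA1h (control, then labelled knockdown).

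The control lines were compared with each other to see how the members differed along the series where METTL3 was not targeted. The 3 comparisons share their controls, each line is 1 clone, and the members' values stand above. In MCF10AT1 against MCF10A 1 of 9 members was called, HLA-E, which was lower by a log2 fold change of -0.59 ± 0.18 (limma adjusted p = 0.0400). Of all 15652 genes, 13.3% were called higher and 14.7% lower in this comparison. The HLA-E call was lost in 7 of the 9 fits that left out 1 control library, all but those without MCF10AT1 control b or c, with a largest adjusted p of 0.136, and with the replicate block (0.0753). Deviations from the group means of same-letter controls of these lines correlated at 0.284, -0.250 and 0.265 (a, b and c). The signs differ and controls with different letters were not compared, so whether the letters pair them is not settled. Without MCF10AT1 control c, PSMB8 was called beside HLA-E.

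In MCF10CA1h against MCF10A 4 of 9 members were called. Higher in MCF10CA1h were PSMB9 (log2 fold change 4.20 ± 0.54, limma adjusted p = 0.000651), PSMB8 (1.94 ± 0.40, 0.00563) and TAPBP (0.89, 0.00665), and HLA-E was lower (-0.87, 0.00605). The other members missed the threshold, with TAP1 at 0.66 (0.0559), HLA-C at 0.40 (0.305), B2M at 0.14 (0.684), HLA-B at -0.37 (0.501) and HLA-F at -0.98 (0.0883). In this comparison 19.0% of genes were called higher and 18.8% lower. Calls were thus common among all genes, and no division of the members by function is read from them.

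In MCF10CA1h against MCF10AT1 1 of 9 was called, PSMB9, which was higher by a log2 fold change of 4.03 ± 0.54 (limma adjusted p = 0.00117), where 11.0% of genes were called higher and 10.8% lower. PSMB8 (1.11, 0.0792) and TAPBP (0.59, 0.0546) missed the threshold and both passed without MCF10A control a (0.0321 and 0.0331), which enters this fit only through the spread. Without MCF10AT1 control c, TAPBP passed (0.0302).

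Whether the effect of the labelled knockdown differed between lines was tested as an interaction in 1 fit of all 18 libraries, with 15897 genes. Between MCF10AT1 and MCF10A the effect was higher in MCF10AT1 for 6 of 9 members, where 11.2% of genes were called higher and 10.5% lower. The differences of log2 fold changes were 3.61 ± 0.61 for HLA-B (limma adjusted p = 0.000425), 2.02 ± 0.35 for HLA-C (0.000569), 1.65 ± 0.56 for HLA-F (0.0461), 1.68 ± 0.35 for B2M (0.00224), 1.36 ± 0.28 for TAPBP (0.00205) and 3.75 ± 0.81 for PSMB9 (0.00307). PSMB8 (1.32, 0.0712) missed the threshold. It passed with the block (0.00475), where 14.8% of genes were called higher and 14.2% lower, and in 3 of the 18 fits that left out 1 library, those without MCF10A control b (0.0490), MCF10AT1 control b (0.0313) or MCF10AT1 labelled knockdown c (0.0248), while HLA-E (0.33, 0.352) and TAP1 (0.05, 0.927) did not pass. The HLA-F call was lost in 12 of the 18 fits that left out 1 library, with a largest adjusted p of 0.124. Between MCF10CA1h and MCF10A the 4 heavy chains were called, all with a higher effect in MCF10CA1h, where 3.65% of genes were called higher and 1.69% lower. The differences were 3.77 ± 0.61 for HLA-B (limma adjusted p = 0.00156), 1.73 ± 0.35 for HLA-C (0.00804), 0.94 ± 0.24 for HLA-E (0.0270) and 3.28 ± 0.56 for HLA-F (0.00247). The HLA-E call was lost in 8 of the 18 fits that left out 1 library, with a largest adjusted p of 0.0859. B2M, TAP1, TAPBP, PSMB8 and PSMB9 did not pass, with differences between -0.17 for TAPBP and 1.15 for B2M. With the replicate block, although the letters do not pair the MCF10CA1h libraries, B2M (adjusted p = 0.00539) and TAP1 (0.0309) passed as well, where 5.25% of genes were called higher and 2.82% lower.

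Between MCF10CA1h and MCF10AT1 the effect was lower in MCF10CA1h for TAPBP, by -1.53 ± 0.28 on the log2 scale (limma adjusted p = 0.000906), and for PSMB9, by -2.92 ± 0.81 (0.0190). The PSMB9 call was lost without MCF10AT1 labelled knockdown a (0.0516) or b (0.0511) or MCF10CA1h control a (0.0516), and without MCF10AT1 control c HLA-F (adjusted p = 0.0153) and TAP1 (0.0131) were called as well. In that comparison 9.67% of genes were called higher and 8.51% lower. The PSMB9 controls differed between these lines, at 9.39 to 22.4 in MCF10AT1 and 187 to 279 in MCF10CA1h, while the labelled knockdown libraries overlapped, at 86.3 to 453 and 435 to 568. HLA-F (1.63, 0.0553), HLA-E (0.62, 0.0829) and TAP1 (0.79, 0.0902) missed the threshold, and so did PSMB8 (-0.87, 0.263), B2M (-0.54, 0.323), HLA-C (-0.29, 0.626) and HLA-B (0.16, 0.889). With the replicate block HLA-F (0.00403) and TAP1 (0.0179) passed as higher and PSMB8 (0.0432) as lower, where 13.1% of genes were called higher and 11.8% lower. The 3 comparisons share libraries and are not independent of each other.

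Of 64 other genes of the class I pathway, in lists of heavy chains and related molecules, NKG2D ligands, peptide loading, proteasome, transcription factors and interferon ligands and receptors, 63 were in the table. In MCF10A 56 were tested, 3 passed as higher and 1 as lower, against 1.16% and 1.49% of all genes, with a median log2 fold change of -0.07 beside -0.00 for all genes. With the block 9 passed (5 higher and 4 lower), against 2.84% and 4.76% of all genes. The higher ones were FCGRT, the neonatal Fc receptor chain (5.05, limma adjusted p = 0.0316), TAPBPL, which edits peptides outside the loading complex (2.14, 0.0376), and IFNLR1, an interferon lambda receptor chain (3.26, 0.0173). The lower one was IRF9, the DNA-binding subunit of the factor that binds ISREs (-1.98, 0.0333). Left-out libraries moved this count between 0 and 8, with 8 without control a and 0 without any 1 of the labelled knockdown libraries.

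In MCF10AT1 55 were tested, 5 passed as higher and 2 as lower, against 7.07% and 5.96% of all genes, so this count lay near the share of all genes. The median was 0.31 beside 0.02 for all genes, and with the block 17 passed (15 higher and 2 lower), against 13.0% and 11.6% of all genes. Among those that passed as higher were the NKG2D ligand ULBP2 (2.72, limma adjusted p = 0.00545), TAPBPL (2.02, 0.0261), interferon epsilon (IFNE, 2.97, 0.0115) and the transcription factor IRF1 (1.76, 0.0428). The IRF1 call was lost with equal sums per library (limma adjusted p = 0.117) and without the intensity trend (0.0739). It was also lost without control a (0.105) or labelled knockdown a (0.142), b (0.149) or c (0.0640). AZGP1, a secreted protein with a class I fold, fell from between 1810 and 5624 to between 1.63 and 7.64 (-9.03, limma adjusted p = 7.9e-05), and NFYB, a subunit of the Y box factor, was lower (-1.37, 0.0308). Without control a 3 genes of the lists passed, without labelled knockdown a 4 and without labelled knockdown b 3.

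In MCF10CA1h 57 were tested, 10 passed as higher and 2 as lower, against 7.91% and 4.85% of all genes, with a median of 0.18 beside -0.02 for all genes. Factors of the interferon signal were among these. IRF9 was at 150, 118 and 165 in the controls and at 1369, 1053 and 1093 in the labelled knockdown libraries (log2 fold change 3.01 ± 0.17, limma adjusted p = 1.8e-05). STAT2, a partner of IRF9 in that factor, was at 570, 560 and 626 against 2533, 1927 and 1888 (1.84, limma adjusted p = 4.1e-05). Neither pair of groups overlaps. The interferon IFNL1 was at 0.00, 1.77 and 6.20 in the controls and at 40.8, 22.2 and 45.5 in the labelled knockdown libraries (3.71, limma adjusted p = 0.00827). The class I-like molecules MR1 (0.72, limma adjusted p = 0.00420) and PROCR (0.46, 0.0116), and the NKG2D ligands MICB (0.60, 0.0244), ULBP2 (0.82, 0.0152) and RAET1L (1.69, 0.0127) were also higher. RAET1G, another NKG2D ligand, (-0.56, 0.0318) and the X box factor subunit RFXAP (-1.02, 0.0287) were lower.

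IRF9 had a log2 fold change of -0.51 in MCF10AT1 (limma adjusted p = 0.505). IRF1 was at 0.64 in MCF10A (0.337) and 0.46 in MCF10CA1h (0.220). NLRC5, the class I coactivator, passed in no line, with log2 fold changes of 0.92 (limma adjusted p = 0.370), 0.13 (0.878) and 0.52 (0.110) in MCF10A, MCF10AT1 and MCF10CA1h. Of the constitutive proteasome subunits PSMB5, PSMB6 and PSMB7 0 of 3 passed in any line by limma, with 1, 1 and 2 at an unadjusted p under 0.05 in MCF10A, MCF10AT1 and MCF10CA1h. Of PSMB10, PSME1, PSME2, PSME3 and POMP 0 of 5 passed, with 1, 1 and 0 at an unadjusted p under 0.05. PSMB10, the third inducible catalytic subunit, had log2 fold changes of 0.81, 1.60 and 0.07 (limma adjusted p = 0.305, 0.114 and 0.838).

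**Figure D4:**
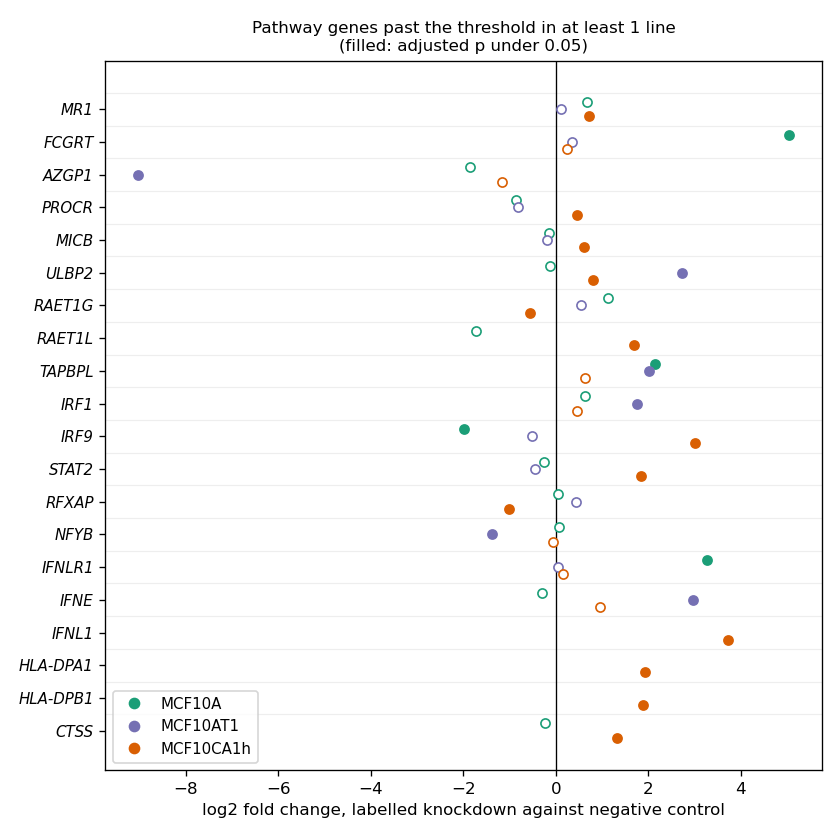
Log2 fold change (x axis, labelled knockdown against negative control) of other listed genes that passed in at least 1 line, with filled points for an adjusted p under 0.05 and no point where a gene was too low to test. IRF9 and STAT2 are filled and above 0 in MCF10CA1h, IRF9 is filled and below 0 in MCF10A, and ULBP2 is filled and above 0 in MCF10AT1 and MCF10CA1h.

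Genes of class II presentation, listed for comparison, were mostly too low to test in MCF10A (3 of 11 tested) and MCF10AT1 (2 of 11), where 0 passed by limma, with 0 and 1 at an unadjusted p under 0.05. In MCF10CA1h 9 were tested and 3 passed as higher, the class II chains HLA-DPA1 (1.93, limma adjusted p = 0.0102) and HLA-DPB1 (1.90, 0.00215) and the protease CTSS (1.32, 0.00537).

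Markers of cell types were read beside these results. All 8 epithelial markers (keratins, EPCAM, CDH1 and TP63) had a mean of at least 10 in every group, and their summed level was between 25970 and 444078 normalized counts. In MCF10AT1 that sum was 97904 to 147092 in the controls and 25970 to 55121 in the labelled knockdown libraries, while the sum of 8 mesenchymal markers was 3247 to 4763 and 117676 to 205997. The rise of HLA-B, B2M, TAPBP, PSMB8 and PSMB9 in MCF10AT1 thus came with this difference, and its part in the result was not tested. In MCF10A the epithelial sums were 166410 to 201415 and 252532 to 299043, and the mesenchymal sums 8678 to 15697 and 5286 to 7962. In MCF10CA1h the epithelial sums were 313626 to 341953 and 414994 to 444078, and the mesenchymal sums 27215 to 32024 and 39351 to 50880. Single markers did not all follow the sums. In MCF10CA1h FN1 was higher (1.92, limma adjusted p = 8.0e-05) and COL3A1 lower (-1.22, 0.0343), and no other mesenchymal marker passed. Of the epithelial markers in MCF10A, KRT5 passed as higher (0.90, limma adjusted p = 0.0455), and KRT14 was at -1.76 (0.0608). Leukocytes, which express class I at high levels, were represented by 7 of 8 markers in the table, with sums of 285 to 2965 over all groups. The sums were 746 to 2113 and 285 to 541 in MCF10A, 777 to 1528 and 1972 to 2965 in MCF10AT1 and 833 to 952 and 737 to 982 in MCF10CA1h. These sums came almost wholly from CD14 and CD68, the 2 markers with a mean of at least 10 in every group. In MCF10CA1h CD68 was higher (1.05, limma adjusted p = 0.0144) and CD14 lower (-1.14, 0.0167) in the labelled knockdown libraries, and neither passed in the other lines. The part of these markers in the members' results was not tested. PTPRC, which marks leukocytes in general, had a mean of 2.20 in the MCF10A controls and under 1 in the other 5 groups, and the T cell marker CD3E had a mean under 1 in all 6 groups.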

How the data were processed

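The authors pseudo-aligned paired-end reads to the hg38 transcriptome with kallisto 0.46.1, used tximport to bring them to gene level and DESeq2 1.26.0 to normalize them. The deposited table holds these normalized counts as a signal, neither reads nor per length. The methods describe ribosomal depletion and stranded total RNA while their heading and the labels name polyA RNA, which is not settled here. Of 60579 rows, 24646 held no gene and no full set of values and were left out. The table lists no column of another series. Reads could not be recovered, since 8.4% to 34.6% of values up to 20 lay within 0.02 of a whole multiple of the most frequent low value of their library, so depth per gene is unknown and no counting interval is given. Size factors computed over the 18 libraries were 1.013 to 1.018, so the values were on a common scale.

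The log2 of the value plus a pseudocount of 1 was tested with limma 3.58.1 in R 4.3.3 (lmFit, eBayes with an intensity trend), with genes of a mean under 10 left out. P-values are two-sided and were adjusted by the Benjamini-Hochberg method over all genes tested, with a threshold of 0.05. Each line was fitted alone (6 libraries), the controls together (9 libraries) and interactions jointly (18 libraries). METTL3 was tested by an exact permutation test. Other values came from Python 3.11.15, pandas 2.3.3, NumPy 2.4.6 and SciPy 1.17.1, and figures from matplotlib 3.10.9. The fit was tested on simulated data.

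The replicate letters come from the titles, which do not say what a letter marks. Over 15897 genes, deviations from the group means were correlated between control and labelled knockdown libraries. With the same letter r was 0.221, 0.200 and 0.116 (a, b and c) in MCF10A and 0.110, 0.289 and 0.477 in MCF10AT1. With different letters it was 0.009 at most in MCF10A. In MCF10AT1 it was 0.251 for control b and labelled knockdown a, above the 0.110 of letter a. Deviations within a group cancel out for each gene, so positive same-letter values force different-letter values down. Low values with different letters are thus no separate support for pairing. The letters were taken to pair these libraries from these same data. The pairing is therefore uncertain, in MCF10AT1 most of all, and calls with the block rest on it. In MCF10CA1h the same-letter values were -0.011, 0.017 and 0.046, which does not pair them. The unblocked fit comes first, and blocked values of members are given where a call changes, also in interactions that include MCF10CA1h. Although the rule for members uses no measured value, members, lists and tests were chosen with earlier results of these data known. Named were all members, METTL3, pathway genes past the threshold in at least 1 line, and the 5 genes most like the members. TAP2, NLRC5 and PSMB10 fall outside that rule and were added after their values were seen. Some pathway genes that passed are counted but not reported here by name. Symbols were taken from the highest of genes that share one, which affected no member. Alternatives were pseudocounts of 0.5 and 5, no filter or a minimum mean of 50, no intensity trend, median-of-ratios rescaling, equal sums per library, a threshold of 0.01, the replicate block, summed genes per symbol, a joint fit and each library left out.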

Additional observations from a re-analysis of the deposited data

Results flagged for a closer look

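Of the interaction tests of the 9 members, 12 differences of the labelled knockdown effect between lines passed the threshold by limma, and they share libraries. They are differences of log2 fold changes, and what lies behind them was not tested. Between MCF10AT1 and MCF10A the effect was higher in MCF10AT1 for HLA-B (3.61), HLA-C (2.02), HLA-F (1.65), B2M (1.68), TAPBP (1.36) and PSMB9 (3.75). Of all genes 11.2% were called higher and 10.5% lower there, and the HLA-F call was lost in 12 of 18 fits that left out 1 library. Between MCF10CA1h and MCF10A the effect was higher in MCF10CA1h for HLA-B (3.77), HLA-C (1.73), HLA-E (0.94) and HLA-F (3.28). There 3.65% of genes were called higher and 1.69% lower, and the HLA-E call was lost in 8 of 18 such fits. Between MCF10CA1h and MCF10AT1 the effect was lower in MCF10CA1h for TAPBP (-1.53) and PSMB9 (-2.92). There 9.67% of genes were called higher and 8.51% lower, and the PSMB9 call was lost in 3 of 18 such fits. For HLA-B, HLA-C and HLA-F the log2 fold change was below 0 in MCF10A (-1.50, -0.78 and -1.59) and above 0 in MCF10CA1h (2.28, 0.94 and 1.69). With 3 libraries per group, single libraries that stand apart from their group were not tested for.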

How the results depend on the processing

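Depth per gene is unknown, and 3 libraries of 1 clone per group limit every result. Of the single-gene values, 1090 of 1177 kept direction and side of the threshold under the other settings, and 934 of 1065 with 1 library left out. No called value reversed, and those that did had main adjusted p-values from 0.593 upward. The cause of the changes below was not tested.

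With the replicate block, the counts of members called became 3 in MCF10A (0 without it), 0 for the controls of MCF10AT1 against MCF10A (1 without it) and 5 for the interaction of MCF10CA1h against MCF10AT1 (2 without it). The other pathway genes became 9 in MCF10A (4 without it) and 17 in MCF10AT1 (7 without it). The letters do not pair the MCF10CA1h libraries, and whether they pair controls of different lines is not settled. The block changed the count of calls by no more than 1.5 times elsewhere. The joint fit gave 1 member in MCF10A, 3 in MCF10CA1h (8 alone), 2 for the controls of MCF10AT1 against MCF10A and 3 for those of MCF10CA1h against MCF10AT1 (1 each alone), and 22 and 3 pathway genes in MCF10AT1 and MCF10CA1h (7 and 12 alone). A threshold of 0.01 left 3 members in MCF10AT1, 0 for the controls of MCF10AT1 against MCF10A, 1 for the interaction of MCF10CA1h against MCF10AT1, and 0, 3 and 6 pathway genes in MCF10A, MCF10AT1 and MCF10CA1h. The controls of MCF10AT1 against MCF10A gave 0 members with no filter and with no trend. In MCF10A the pathway genes called were 2 at a mean of at least 50 and 1 with no trend. Equal sums per library gave 2 members for the controls of MCF10AT1 against MCF10A, 3 for MCF10CA1h against MCF10AT1 and 5 for that interaction (3 higher and 2 lower). They moved the median of all genes most for the interaction of MCF10AT1 against MCF10A, from -0.00 to -0.26, and in MCF10AT1 from 0.02 to -0.15.

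With 1 library left out, members called were 0 to 2 in MCF10A, 3 to 6 in MCF10AT1 and 7 to 9 in MCF10CA1h, 0 to 2, 4 to 6 and 1 to 3 for the controls (MCF10AT1 against MCF10A, MCF10CA1h against MCF10A, MCF10CA1h against MCF10AT1), and 5 to 7, 3 to 4 and 1 to 4 for the same interactions. Pathway genes called were 0 to 8, 3 to 9 and 8 to 11 in the 3 lines.

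Reversed values, none of them called, were with equal sums HLA-F in MCF10AT1 (-0.10) and the TAP1 interaction of MCF10AT1 against MCF10A (-0.20). With a library left out, the log2 fold change ran from -0.21 to 0.75 for PSMB9 in MCF10A, and from -0.32 to 0.34 for HLA-F and -0.0048 to 0.42 for TAP1 in MCF10AT1. For the controls of MCF10AT1 against MCF10A it ran from -0.13 to 0.62 for HLA-B, -0.064 to 0.48 for HLA-C, -0.042 to 0.38 for TAP1 and -0.36 to 0.60 for PSMB9, for MCF10CA1h against MCF10A from -0.035 to 0.40 for B2M, and for MCF10CA1h against MCF10AT1 from -0.073 to 0.47 for HLA-C and -0.17 to 0.44 for HLA-F. Interactions ran from -0.19 to 0.23 for TAP1 (MCF10AT1 against MCF10A), -0.35 to 0.044 for TAPBP (MCF10CA1h against MCF10A), and -0.10 to 0.48 for HLA-B and -0.52 to 0.023 for HLA-C (MCF10CA1h against MCF10AT1).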
